A study of Arabidopsis thaliana with 3 samples.

Results

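LNK1 (AT5G64170), LNK2 (AT3G54500), LNK3 (AT3G12320) and LNK4 (AT5G06980) form the night light-inducible and clock-regulated (LNK) family of Arabidopsis. The 4 genes, of 27444 nuclear protein-coding genes in all, were chosen by locus, with the peaks of these samples already known. Having peaks in both replicates and a low irreproducible discovery rate (IDR) is therefore part of how the family was selected, and the values at its genes are given as a description with no test. ChIP-seq measured where AtSDR4L, a nuclear regulator of transcription with a rice relative (SDR4) known for seed dormancy, sat on the genome. The line carried an HA-tagged AtSDR4L that is made when β-estradiol is supplied. The induced group comprised 2 biological replicates of whole seedlings grown on medium with 1 µM β-estradiol, and the uninduced group was 1 sample of the same line grown without it. All seedlings were 4 days old and grew under 16 h of light and 8 h of dark, and every ChIP used the same anti-HA antibody. The labels give neither the hour of harvest nor the amount of tagged protein made.

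LNK proteins are transcriptional coactivators of the circadian clock. They have no known DNA-binding domain of their own and are brought to promoters by MYB-like clock proteins such as RVE8 and RVE4. There LNK1 and LNK2 help to switch on PRR5, TOC1 and other genes that are active later in the day. LNK transcripts rise after dawn and respond to light, and loss of LNK1 and LNK2 together lengthens the circadian period and changes light-controlled seedling growth. LNK3 and LNK4 are the less studied members.

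Fold enrichment is the authors' value at the summit, the highest point of a peak, on a linear scale. It is relative to the background that the peak caller took from the uninduced control. How that background was set at each site is not given. A fold therefore need not be a ratio to the uninduced signal at that site. A peak was given to a gene when its summit lay inside the gene span or up to 2000 bp outside either end. The gene table used here gives no strand, so the ends are named by coordinate and not as start or end of transcription. Peak coordinates are 1-based on TAIR10. Read depth is unknown, as the lists give no counts, and no counting error can be attached to a fold.

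All 4 LNK genes had 1 peak in each induced replicate, and each of these peaks sat at a gene end. At LNK1 the peak of replicate 1 covered chromosome 5: 25676711-25677186 with a fold enrichment of 3.80, and that of replicate 2 covered 25676726-25677025 with 2.37. At LNK2 the peak of replicate 1 covered chromosome 3: 20178961-20179430 with a fold of 4.23, and that of replicate 2 covered 20179031-20179309 with 2.37. At LNK3 the peaks covered chromosome 3: 3923101-3923783 with a fold of 3.86 in replicate 1 and 3923295-3923748 with 3.12 in replicate 2. The narrower LNK peaks of replicate 2 lay within those of replicate 1 at these 3 genes. At LNK4 the peaks covered chromosome 5: 2167051-2167678 with a fold of 4.37 in replicate 1 and 2167013-2167633 with 3.28 in replicate 2, and there each replicate reached farther on one side.

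**Figure D1:**
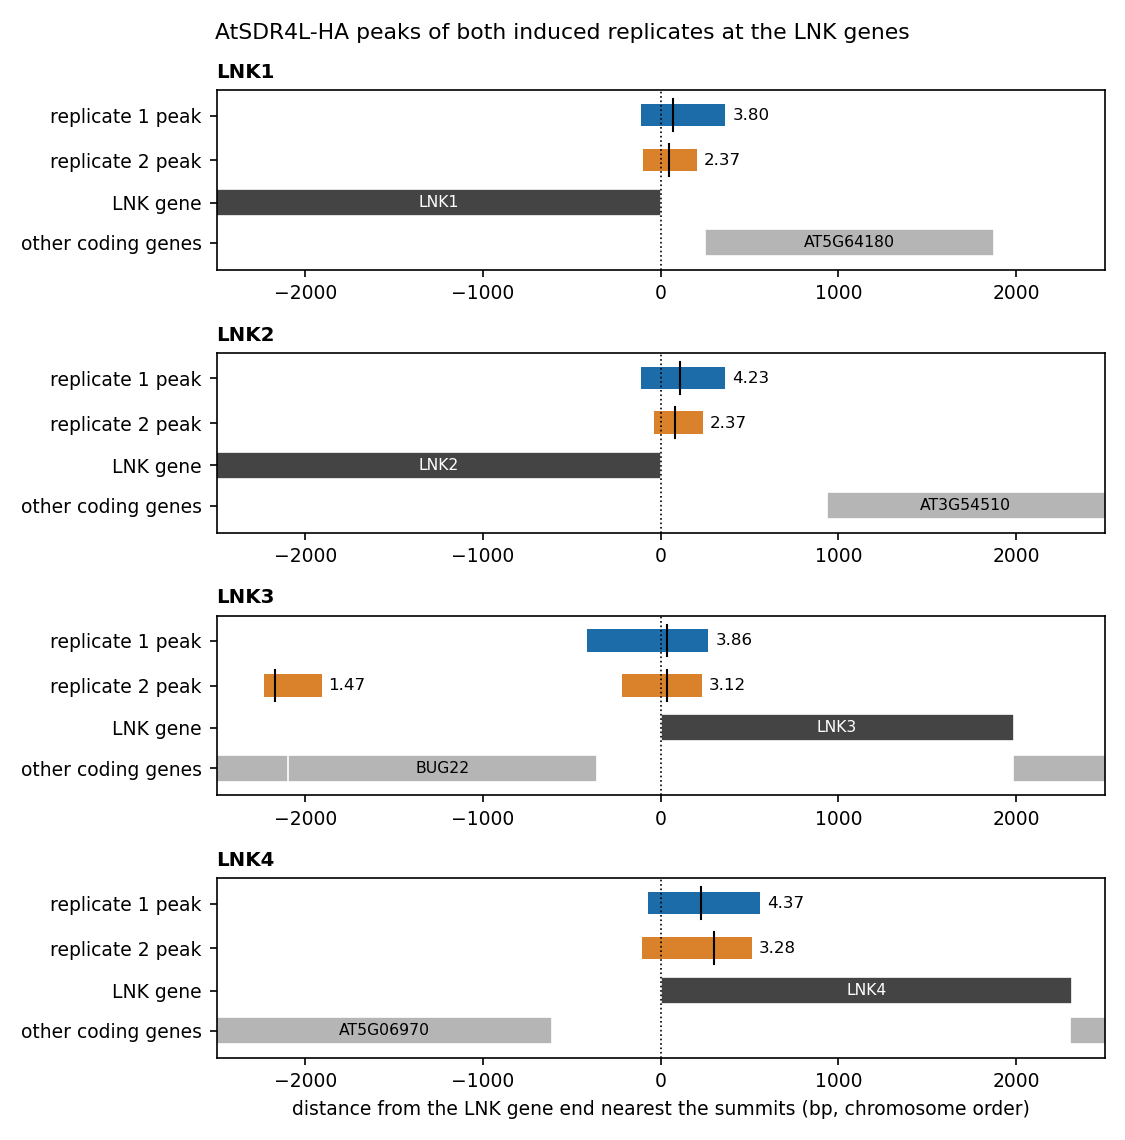
Map of the 4 LNK genes, with the distance in bp from the LNK gene end nearest the summits on the x axis, in chromosome order, and with peak intervals of both induced replicates above the spans of coding genes. Black ticks are summits and the printed values are fold enrichments. The summits of the LNK peaks lie just beyond the higher-coordinate end of LNK1 and LNK2 and just inside the lower-coordinate end of LNK3 and LNK4. A further replicate 2 peak in the LNK3 panel, with a fold of 1.47, lies in AT3G12290 outside the 2000 bp window.

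The mean fold was 3.82 ± 0.769 at LNK4, 3.49 ± 0.523 at LNK3, 3.30 ± 1.32 at LNK2 and 3.08 ± 1.01 at LNK1 (SD, n = 2 each). Every step in this order, and also the gap between LNK4 and LNK1, was smaller than the SD of the genes it separates; these SDs include the difference between the replicates as a whole. Within each replicate LNK4 had the highest fold of the 4 genes, and LNK3 was above LNK1 in both. The place of LNK2 differed, since it stood between LNK4 and LNK3 in replicate 1 and level with LNK1 in replicate 2. LNK1 and LNK2 had exactly the same fold in replicate 2, and also the same −log10 q of 13.2, a pair of values that 5 summits of that list share.

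Each LNK gene had its higher fold in replicate 1. That holds for 91.2% of the 182 matched regions with an IDR of at most 0.05 and for 67.0% of all 1776 nuclear matched regions, so the direction is shared with most regions. The fold in replicate 2 was 0.808 of that in replicate 1 at LNK3, 0.751 at LNK4, 0.623 at LNK1 and 0.559 at LNK2. The median ratio of the 182 regions was 0.75, which lies close to LNK4, below LNK3 and above LNK1 and LNK2.

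Among all peaks the LNK peaks were strong ones. Their strength is no separate finding, since these peaks were known when the family was chosen. In replicate 1 their folds ranked 87 (LNK4), 105 (LNK2), 175 (LNK3) and 190 (LNK1) among 9811 nuclear peaks, whose median fold was 1.80. In replicate 2 LNK4 ranked 60 and LNK3 87 among 3423 nuclear peaks with a median fold of 1.70, while LNK1 and LNK2 shared rank 377. The median over the 4 LNK genes was 4.05 in replicate 1 and 2.74 in replicate 2, beside 1.84 and 1.72 over all coding genes with a peak in the same list. By −log10 q LNK4 had 63.0 in replicate 1 and 35.2 in replicate 2, LNK3 60.2 and 39.5, LNK2 54.4 and 13.2, and LNK1 43.0 and 13.2. LNK1 and LNK2 therefore lay high in one list and much lower in the other, at rank 781 by q in replicate 2.

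**Figure D2:**
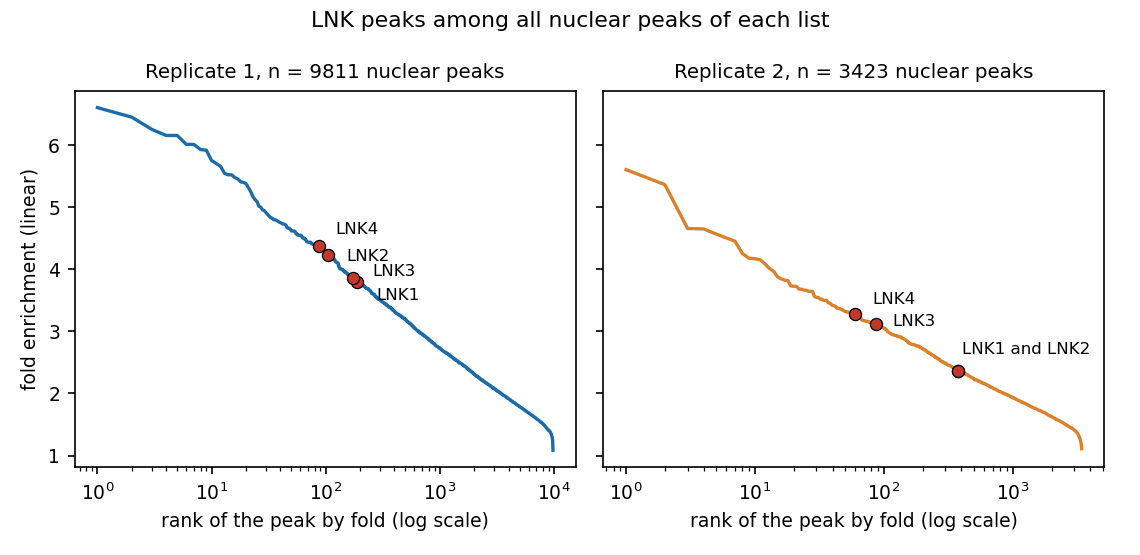
Fold enrichment (y axis, linear) of every nuclear peak against its rank by fold (x axis, log scale), with 1 panel per induced replicate and the LNK peaks as red points. The LNK peaks sit at ranks 87 to 190 of 9811 in replicate 1 and at ranks 60 to 377 of 3423 in replicate 2.

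All 4 genes had a peak in replicate 1, against 43.7% of all nuclear protein-coding genes by the same window, and all 4 in replicate 2, against 17.7%. A peak in both lists was found at the 4 genes and at 12.5% of all coding genes. All 4 also had a matched region in the table of both replicates, against 9.67%. The authors' deposited table gave an IDR of 0.00446 at LNK3, 0.00505 at LNK4, 0.0371 at LNK2 and 0.0429 at LNK1. At most 0.05 was thus reached by all 4 genes, against 0.805% of coding genes, and at most 0.01 by LNK3 and LNK4, against 0.244%, in the authors' deposited table. LNK3 ranked 39 and LNK4 43 of the 1776 regions in the authors' deposited table, while LNK2 ranked 145 and LNK1 162, just inside the limit that 182 regions passed. Since the family was chosen with these peaks known, the counts are read no further than that. The IDR shares and ranks have a further limit, as the IDR went with the number of summits per peak. At most 0.05 was reached by 15.3% of the 1138 matched regions with a single summit in each replicate. Of the 594 regions with several summits in a replicate 1.35% reached it. Every LNK peak had a single summit.

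**Figure D3:**
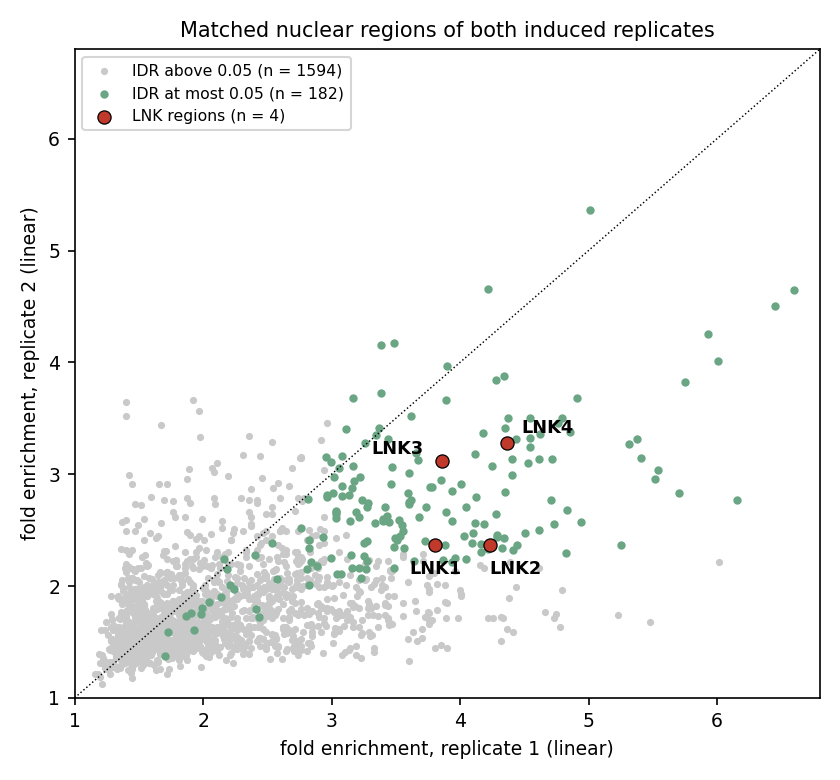
Fold enrichment in replicate 1 (x axis) and replicate 2 (y axis), linear scale, of all 1776 nuclear matched regions; green points have an IDR of at most 0.05, red points are the 4 LNK regions and the dotted line marks equal folds. All 4 LNK regions lie below the line, with LNK1 and LNK2 at 2.37 in replicate 2 and LNK3 and LNK4 above 3.

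Among the 182 regions with an IDR of at most 0.05 the LNK regions were spread by rank. By mean fold LNK4 ranked 33, LNK3 52, LNK2 77 and LNK1 102. In replicate 2 alone LNK4 ranked 35 and LNK3 47, while LNK1 and LNK2 ranked 134. The median fold of the 182 was 3.60 in replicate 1, below all 4 LNK genes, and 2.66 in replicate 2, below LNK3 and LNK4 and above LNK1 and LNK2.

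The summits fell on small stretches of DNA beside the gene ends, and both replicates placed them on the same side. At LNK1 they lay outside the higher-coordinate end, 71 bp from it in replicate 1 and 48 bp in replicate 2. LNK2 had the same arrangement, with 110 bp in replicate 1 and 79 bp in replicate 2. At LNK3 the summits lay 37 and 36 bp inside the lower-coordinate end, and at LNK4 226 and 302 bp inside it. LNK1 and LNK2 were thus alike in having the summit in the intergenic DNA, and LNK3 and LNK4 in having it within the annotated gene. No LNK summit was more than 302 bp from a gene end. That distance took in 34.1% of the 182 regions with an IDR of at most 0.05, whose median summit was 698 bp from a coding gene end, and 47.6% of all matched regions, with a median of 333.5 bp.

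The replicates placed the summit 1 bp apart at LNK3, 23 bp at LNK1, 31 bp at LNK2 and 76 bp at LNK4. The median of the 182 regions was 15.5 bp and that of all matched regions 66 bp. LNK3 was thus placed more tightly than most of the 182, and LNK1, LNK2 and LNK4 less tightly. LNK4 was also above the median of all matched regions. Overlap of the peak intervals put LNK4 first, while LNK3, LNK1 and LNK2 kept their order. It was 87.5% of the joint length at LNK4, 66.5% at LNK3, 63.0% at LNK1 and 59.4% at LNK2, beside a median of 75.4% for the 182 regions. The LNK4 peaks lay mostly in the gene, with 89.0% of the interval of replicate 1 and 82.8% of that of replicate 2 inside its span. The LNK2 intervals lay mostly outside, with 23.4% and 14.3% inside, as did those of LNK1 with 23.7% and 32.7%. LNK3 was between them, with 39.4% and 51.5%.

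Every LNK summit also fell in the window of a neighbouring coding gene. AT5G64180 begins 248 bp beyond LNK1, and the LNK1 summits were 178 and 201 bp from it, against 71 and 48 bp from LNK1. The interval of replicate 1 reached 115 bp into AT5G64180, whereas that of replicate 2 stopped short of it. Of the 4 loci this is the one with the shortest distance from the summits to a neighbouring coding gene. The gap beside LNK2 is wider, and its summits were 827 and 858 bp from AT3G54510. A non-coding RNA gene, AT3G08405, lies within the LNK2 span, 444 and 413 bp from the summits. BUG22, on the other side of a 359 bp gap from LNK3, was 397 and 396 bp from the LNK3 summits, and the peak of replicate 1 covered its last 55 bp on that side. AT3G12340, which overlaps the far end of LNK3, was 1946 and 1947 bp away and so barely within the window. AT5G06970 was 835 and 911 bp from the LNK4 summits. Each LNK gene was the nearest coding gene to its summits in both replicates.

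The clock genes that LNK proteins work with gave a mixed picture. A list of 27 further genes comprised 11 MYB genes (partners of LNK proteins and their relatives), 7 genes that LNK and RVE proteins act on, and 9 other clock genes. Of these 27 genes, 22 had a peak in replicate 1 and 11 in replicate 2, and 10 had one in both, against 43.7%, 17.7% and 12.5% of all coding genes. A peak in both lists need not be at the same site, and 9 of the 27 had a matched region, against 9.67%. The median fold of the listed genes with a peak was 2.19 in replicate 1 and 2.06 in replicate 2. These lie below the LNK medians, which come from genes chosen with their peaks known.

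Of the MYB genes 9 of 11 had a peak in replicate 1 and 3 in replicate 2, against 43.7% and 17.7% of all coding genes. RVE8, which brings LNK1 and LNK2 to their targets, had a peak of 1.54 in replicate 1 and none listed in replicate 2. RVE4, its close relative, had 1.83 in replicate 1 and none in replicate 2, and RVE6 had none in either list. These RVE genes thus had folds near or below that of the median peak of replicate 1, or no listed peak. LHY, a morning repressor of the clock, had folds of 3.40 and 2.58, and its partner CCA1 had 3.31 and 1.80. RVE1, a MYB gene linked to auxin and seed dormancy, had 3.24 and 1.70, with summits 1726 and 1615 bp outside the gene. RVE2 and MYB3, named after their values were seen, had folds of 3.86 and 3.10 in replicate 1 and no listed peak in replicate 2. That of RVE2 was the highest of the 11 MYB genes in replicate 1. In the authors' deposited table LHY had an IDR of 0.0339 and was the one gene of the 27 at 0.05 or below.

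All 7 genes under LNK and RVE control had a peak in replicate 1, against 43.7% of all coding genes. In replicate 2, 5 had one, against 17.7%. GI, which acts in clock and flowering time control, had folds of 5.40 and 3.66. PRR9, a repressor of the morning genes, had 5.48 and 3.15, and PRR5, a direct LNK target, had 5.17 and 2.46. The summits lay outside the gene, by 875 and 893 bp at GI, 143 and 153 bp at PRR9 and 1359 and 1347 bp at PRR5. No LNK summit lay more than 110 bp outside its gene. These 3 genes had higher folds than every LNK gene in replicate 1, and GI also in replicate 2. ELF4, of the evening complex, had 2.49 and 2.06, and TOC1, the other direct LNK target, had 1.70 and 1.76. Of the other clock genes, PRR7 had 2.76 and 2.26. Folds at least as high as the lowest LNK fold in both replicates, 3.80 and 2.37, were found at 123 coding genes (0.448%), which include GI, PRR9 and PRR5.

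**Figure D4:**
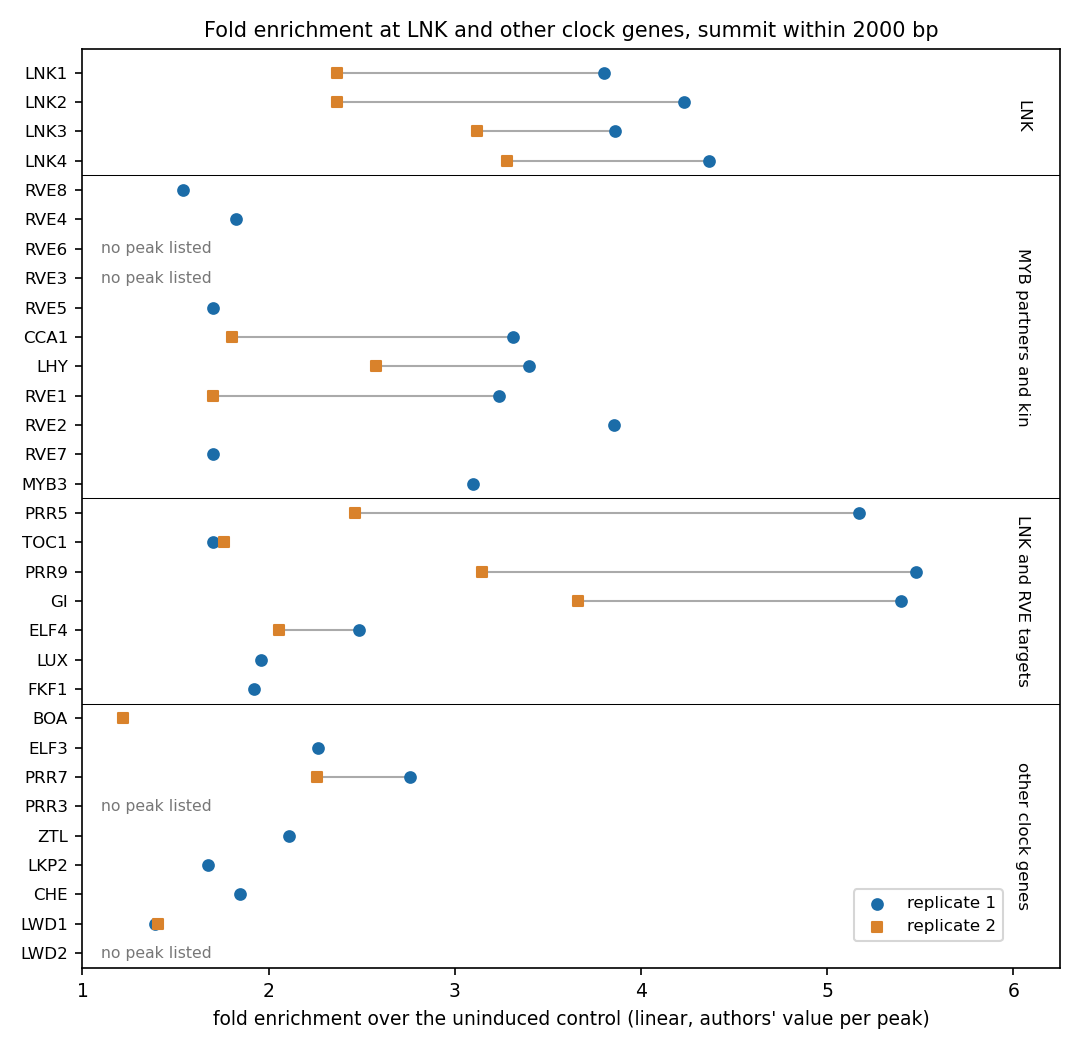
Fold enrichment (x axis, linear) at the 4 LNK genes and 27 other clock genes, for the peak of the highest q within 2000 bp of each gene, with circles for replicate 1 and squares for replicate 2; a missing symbol means that no peak was listed. The LNK genes have both symbols, and GI, PRR9 and PRR5 lie to the right of all LNK genes in replicate 1.

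The IDR did not follow these folds. The authors' deposited table gave an IDR of 0.428 for GI, 0.433 for PRR9 and 0.259 for PRR5. Each of these genes had a peak with 2 summits in one replicate, and the authors' deposited table carried the q of the weaker summit. For GI that summit had a fold of 1.92 in replicate 1, for PRR9 1.68 in replicate 2 and for PRR5 2.06 in replicate 1. ELF4 had a peak with 3 summits in replicate 1, where the carried summit had a fold of 1.48, and its IDR was 0.419. TOC1 also had a peak with 2 summits in replicate 1, and its IDR was 0.649. Use of the weakest summit was general. In the authors' deposited table the q was that of the weakest summit in all 514 matched peaks with several summits in replicate 1 and in all 235 in replicate 2. The folds of such regions among the 1776 given above are likewise those of the weakest summit. Of the 1732 regions made of 1 deposited interval per replicate, 1138 had a single summit in each and 594 had several in a replicate. Of the 1138 regions with a single summit in each replicate 174 (15.3%) had an IDR of at most 0.05, against 8 of the 594 regions (1.35%) with several summits in a replicate. A single summit did not always go with a low IDR. Clock genes with a single summit in each replicate had 0.0339 (LHY), 0.0908 (PRR7), 0.141 (CCA1) and 0.253 (RVE1), the last close to that of PRR5. All 8 LNK peaks had a single summit, so their q was that of their only summit. An IDR from the q of the strongest summit was not computed. The IDR of the LNK genes and of GI, PRR9, PRR5, ELF4 and TOC1 therefore cannot be set side by side. The IDR ranks and the shares of all coding genes by IDR carry the same limit.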

How the data were processed

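Peaks of each induced replicate were called by the authors with MACS2 2.2.7.1 against the 1 uninduced control, per the series' design text. The submitters' processing notes also name bcl2fastq 2.20, Bowtie2 2.3.5.1, SAMtools 1.7 and TAIR10; filters and the IDR program's settings were not given in the sources used. The deposited lists hold a score, a fold enrichment ratio and −log10 p and q values, and the highest deposited q-value was 0.0998. The deposited IDR table holds a scaled score and −log10 IDR. As both lists share 1 control, anything particular to that library enters both.

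Rows with the same interval (12865 and 4502 rows) were merged to the summit of the highest q. Folds of matched regions came from the row with the same q (within 0.001) in the same interval, found for all 1784. Gene spans and names came from a RefSeq table (TAIR10.1), in which all 31 listed loci were found; it was used for distances and neighbours only. The assignment of summits to genes was tested on simulated data. Members, lists and named genes were chosen with earlier results of these data known. Named genes were the 4 members, their neighbours, up to 8 clock genes by mean fold, CCA1, LHY, RVE4, RVE6, RVE8, PRR5 and TOC1, and 3 genes closest in log2 fold to each member. Also named, outside this rule, were RVE2, MYB3 and the genes at the next peaks beyond the windows. Planned motif counts in promoters and protein identities were not run, as no sequences were used here. Python 3.11.15, pandas 2.3.3, numpy 2.4.6 and matplotlib 3.10.9 were used.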

Additional observations from a re-analysis of the deposited data

How the results depend on the processing

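All 4 LNK genes kept a peak in replicate 1, in replicate 2, in both and in the matched regions with windows of 500, 1000 and 3000 bp, with any overlap of the interval and with the nearest coding gene. In the peak lists they also kept it with every summit row and at a −log10 q of at least 5 and 10. At a −log10 q of at least 10 the share of all coding genes with a peak in both lists was 2.42%. The 4 genes also kept an IDR of at most 0.05 under every window rule, while the share of all coding genes ran from 0.364% (500 bp) to 1.05% (3000 bp). By the IDR of the authors' deposited table, 2 LNK genes reached 0.01 (0.244% of all coding genes) and 4 reached 0.1 (1.36%). Each LNK gene had 1 peak per list, so its fold was the same for the summit of the highest q, of the highest fold and the median. Every LNK summit lay inside its gene or at most 110 bp outside it, and the LNK gene was the nearest coding gene. The lowest −log10 q was 13.2. The changes of window, overlap, nearest gene and q therefore could not remove a LNK peak, and these outcomes add no evidence.

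Alternatives for the other clock genes were chosen after seeing the data. With a 500 bp window 7 had a peak in replicate 2 (11.4% of all coding genes) and 6 in both (6.95%), and with 3000 bp 2 had a region with an IDR of at most 0.05 (1.05%). Counting a peak for its nearest coding gene only, 16 had one in replicate 1 (26.8%), 10 in replicate 2 (10.3%) and 9 in both (6.6%). At a −log10 q of at least 10, 14 had a peak in replicate 1 (15.4%), 5 in replicate 2 (5.76%) and 5 in both (2.42%). In the authors' deposited table an IDR of at most 0.01 was reached by 0 of them and one of at most 0.1 by 2. It uses the weakest summit of any peak with several, as at GI, PRR9, PRR5 and ELF4. With 1 replicate left out, the count is only that of the remaining list. It was 11 or 22 for the other clock genes and 4 for the LNK genes. No paired analysis was possible because there is 1 uninduced sample and its reads enter only through the authors' peak calls. Promoter motif alternatives were not run.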

Other observations

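The coding genes closest to each LNK gene in the log2 fold of both replicates, among 3415 others with a peak in both lists, were first those that share its peak. These were AT5G64180 for LNK1, AT3G54510 for LNK2, BUG22 and AT3G12340 for LNK3, and AT5G06970 for LNK4. With peaks of their own, AT3G02120 and AT3G02125, which share 1 peak, were closest to LNK1 with folds of 3.88 and 2.37 at a distance of 0.0313 on the log2 scale. AT3G56270 (4.22 and 2.33) and NRT2.2, a nitrate transporter gene (4.16 and 2.38), were closest to LNK2. AT4G16380 (3.96 and 3.14) was closest to LNK3. EMB269 (4.44 and 3.31) and HFR1, a bHLH gene of light signalling (4.44 and 3.37), were closest to LNK4. The likeness rests on 2 values per gene.

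Beyond the windows only the nearest further peak of each list was looked up for each LNK gene. Just outside, replicate 2 had a peak with its summit in SKIP5, 2079 bp from LNK2, with a fold of 1.76, and one in AT3G12290, 2170 bp from LNK3, with 1.47. Neither had a matched region. In replicate 1 the next peak lay in RBR1, a retinoblastoma-related cell cycle gene, 4252 bp from LNK3 with a fold of 2.03, and another 7948 bp from LNK2 near AT3G54460 with 1.92. Next to LNK1 both replicates had a peak near AT5G64220, 9308 and 9249 bp away with folds of 2.88 and 2.03. LNK4 stood most alone, with its next peak 12233 bp away in replicate 1 and 27410 bp away in replicate 2.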
